A study of Rattus norvegicus with 10 samples.

Results

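The locus of Cln6, which is mutated in a form of neuronal ceroid lipofuscinosis, was followed through 21 tiles of 1000 bp on chromosome 8, out of 176032 tiles in the whole table. The members are the tiles with a value that start between 63206001 and 63406001 of mRatBN7.2 (rn7), which is 100 kb on either side of a tile in an intron of Cln6. This tile runs from 63306001 to 63307000 and lies in a CpG shelf, the stretch beyond the shores of a CpG island. It was picked because it was lower in HCR than in LCR rats. Its own line difference is therefore given as a description, without a test, while the other 20 tiles entered the window by position alone. RRBS cuts DNA at MspI sites before bisulfite conversion and so reaches only part of the sequence. The study also filtered by coverage, covered CpGs and rats per line. After these steps 10.4% of the 201 possible tiles had a value here.

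Hippocampal DNA came from 4 HCR rats (1, 11, 15 and 19), a line bred for high running capacity, and from 6 LCR rats (12, 18, 22, 24, 26 and 30), a line bred for low running capacity. Both lines were in generation 44 and go back to 1 genetically mixed stock. All rats were females of 23 to 24 months, and each library is 1 rat. They were kept without running wheels or structured exercise training, and no treatment is described. According to the paper, all animals also went through treadmill testing of oxygen uptake and a water maze. Each value is the percentage of CpG calls in a tile that were methylated, and the read depth behind it is unknown, so no counting error is given.

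CLN6 is a membrane protein of the endoplasmic reticulum. In mouse and human cells it works together with CLN8 in passing newly made enzymes on toward the Golgi, from where they reach the lysosome. Loss of CLN6 leads to storage of ceroid lipopigment in neurons and other cells, and to a childhood form of neuronal ceroid lipofuscinosis. DNA methylation of CpGs is usually low in CpG islands at gene starts and high in introns and exons away from them.

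In RefSeq tables of a later assembly, GRCr8, the protein-coding genes around Cln6 follow each other in the order Itga11, Fem1b, Cln6, Calml4 and Pias1. Itga11 encodes a collagen-binding integrin subunit, Fem1b a substrate receptor of a ubiquitin ligase, Calml4 a calmodulin-like protein and Pias1 a SUMO ligase. Promoter sequences of 250 bases before to 50 bases after the start were held there for 4 of these 5 genes. They are shown for the neighbours on both sides of Cln6 because MspI sites, CCGG, decide where RRBS can give a value. CCGG reads the same on both strands and is set in capitals. The Fem1b promoter (minus strand, chr8:72173947-72174246 of GRCr8) holds 5 sites and 42 CpGs, and the Calml4 promoter (plus strand, chr8:72218636-72218935 of GRCr8) 1 site and 5 CpGs. Of all 33469 promoters in the table, 51.4% hold at least 1 site and 7.45% hold 5 or more, and the median is 7 CpGs. The tiles are in mRatBN7.2, and positions of GRCr8 were not placed on them here.
Fem1b: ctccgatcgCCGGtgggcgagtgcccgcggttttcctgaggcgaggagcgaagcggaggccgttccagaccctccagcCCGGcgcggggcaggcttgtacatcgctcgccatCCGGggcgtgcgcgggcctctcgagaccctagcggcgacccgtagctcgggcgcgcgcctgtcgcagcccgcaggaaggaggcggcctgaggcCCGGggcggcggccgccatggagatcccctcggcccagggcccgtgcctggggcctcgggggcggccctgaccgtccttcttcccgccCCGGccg
Calml4: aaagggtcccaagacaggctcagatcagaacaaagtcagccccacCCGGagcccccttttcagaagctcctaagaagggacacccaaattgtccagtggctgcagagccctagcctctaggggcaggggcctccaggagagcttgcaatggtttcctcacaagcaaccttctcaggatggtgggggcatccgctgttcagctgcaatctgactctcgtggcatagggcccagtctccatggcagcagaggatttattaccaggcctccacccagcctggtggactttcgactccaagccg

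In the Cln6 intron tile, methylation was 65.8%, 54.5%, 56.9% and 66.1% in HCR rats 1, 11, 15 and 19, against 97.6%, 94.8%, 87.9%, 97.9%, 84.1% and 81.4% in LCR rats 12, 18, 22, 24, 26 and 30. All 4 HCR rats lay below all 6 LCR rats, with 15.3 points between the nearest rats of the lines. HCR rats averaged 60.8% ± 6.02 and LCR rats 90.6% ± 7.12 (SD, n = 4 and 6), which makes -29.8 points between the lines (standard error 4.32). With each rat left out in turn the difference was between -31.6 and -27.7 points. The tile met the limits of a call, given below, in only 1 of these 10 fits. The rats of a line spread over 11.7 points in HCR and 16.4 points in LCR. The tile was chosen by these values. Hippocampal DNA holds many cell types, and a different mix of cells and a different methylation within cells cannot be told apart. Whether the DNA sequence of this tile differs between the lines was not tested.

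Within each rat the tile was set against the mean of that rat over the 126459 complete tiles, those measured in all 10 rats. It lay 4.85 to 19 points above this mean in HCR rats (median 12.7) and 37.5 to 52.3 points above it in LCR rats (median 44.0). The whole-table means themselves were 46.2 to 51.3% in HCR and 43.9 to 49.8% in LCR rats and overlapped.

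**Figure D1:**
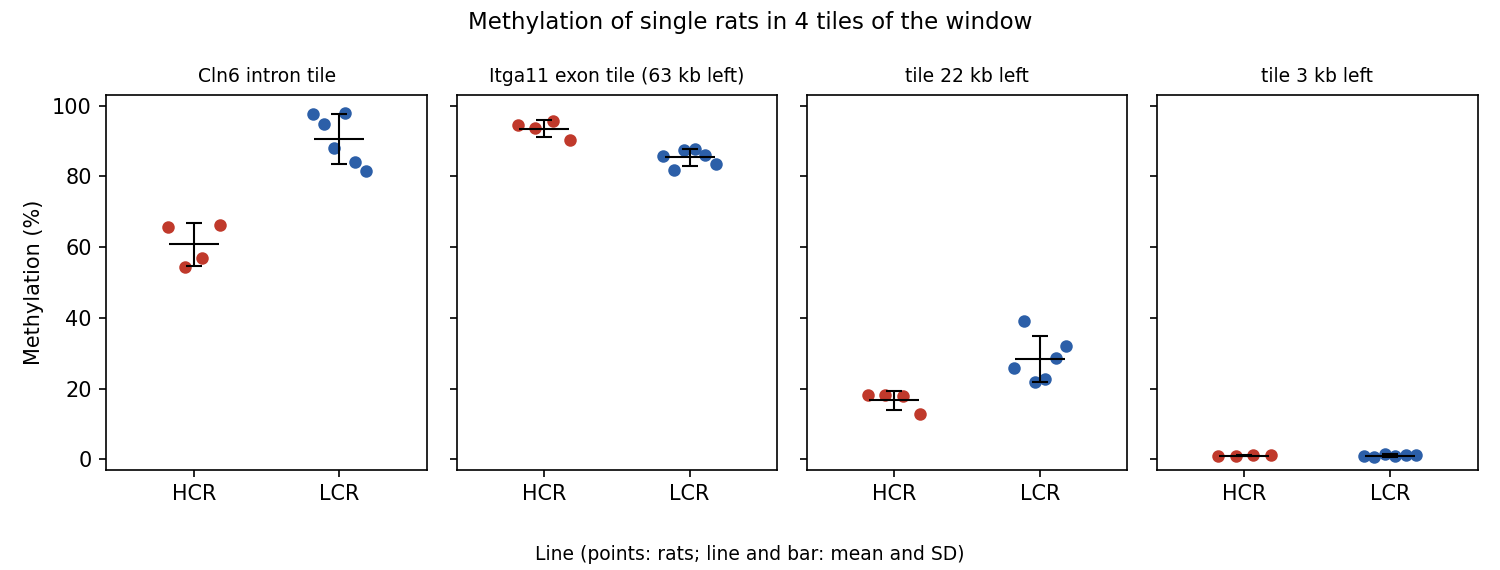
Methylation (%) of each rat in 4 tiles of the window, HCR and LCR side by side, with points for rats and a line and bar for mean and SD. HCR rats lie at 54.5 to 66.1% and LCR rats at 81.4 to 97.9% in the Cln6 intron tile, while both lines lie near 1% in the tile 3 kb to its left.

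Level changed sharply around the Cln6 tile. The tile 3 kb to its left (lower coordinates), from 63303001 to 63304000, was nearly free of methylation. Its values were 0.798%, 1.06%, 1.25% and 1.18% in HCR rats 1, 11, 15 and 19, against 0.8%, 0.707%, 1.55%, 1.001%, 1.18% and 1.17% in LCR rats 12, 18, 22, 24, 26 and 30. The lines overlapped throughout and differed by 0.00531 points (standard error 0.262; limma adjusted p = 0.998). The adjoining tile at 2 kb had a value in 3 HCR rats (5%, 0% and 0% in rats 1, 11 and 15) and in 3 LCR rats (0%, 1.04% and 0% in rats 18, 26 and 30). It, too, was near 0 in both lines. On the other side no tile had a value until 15 kb, where 63321001 to 63322000 was at 65.5%, 15.2% and 89.7% in HCR rats 11, 15 and 19, against 65.8%, 81.4%, 38.2%, 58.6%, 52.9% and 52.0% in LCR rats 12, 18, 22, 24, 26 and 30. There the single rats differed far more than the lines, by -1.38 points (standard error 15.1; limma adjusted p = 0.992). At 2 and 3 kb to the left, then, the lines differed by at most 1.32 points. Both tiles lie near 0, so a drop in HCR rats like that of the Cln6 tile could not appear there. The wide spread at 15 kb to the right leaves that tile, too, with little information on the lines.

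**Figure D2:**
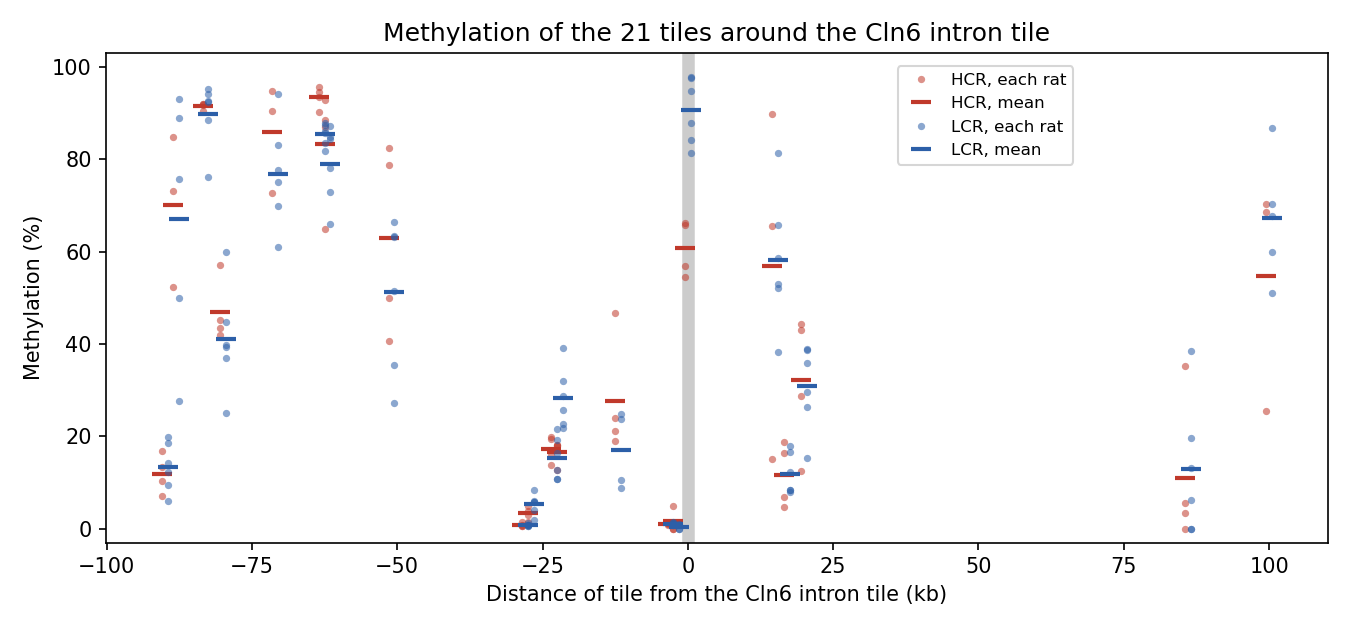
Methylation (%) of the 21 tiles by distance (kb) from the Cln6 intron tile, which is shaded; points are rats, short lines are line means, and HCR is drawn 0.5 kb left and LCR 0.5 kb right of the tile. Levels run from about 1% at 3 and 28 kb to the left to over 90% at 83 kb to the left, and the lines lie clearly apart in the shaded tile.

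Along the window, 4 tiles had a mean under 5%, 4 lay at 5 to 20%, 10 at 20 to 80% and 3 at 80% or more. Over all tested tiles these classes held 15.4%, 10.6%, 39.97% and 34.1%. Apart from the Cln6 surroundings, a second stretch of low methylation lay 28 and 27 kb to the left. In the tile from 63278001 to 63279000, HCR rats averaged 0.898% ± 0.357 and LCR rats 0.820% ± 0.290 (SD, n = 4 and 6). In the next one, HCR rats averaged 3.31% ± 1.48 and LCR rats 5.31% ± 2.20. Nearer to Cln6, levels were 17.2% in HCR against 15.2% in LCR rats at 23 kb, and 27.7% in HCR against 16.9% in LCR rats at 12 kb to the left. The most methylated tile by its mean over all rats was 83 kb to the left, where HCR rats averaged 91.5% ± 0.738 and LCR rats 89.8% ± 7.08. The annotation used here covers only regions that the study listed as significant. Within the window it names genes for the Itga11 and Cln6 tiles alone, so the genes of the low tiles are not known here.

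By the pooled SD within lines, rats of a line differed least in the 4 tiles with a mean under 5%. A low level did not always go with a small spread. At 86 kb to the right the SD was 16.3 points in HCR and 14.7 points in LCR rats (n = 4 and 6), at means of 11.1% and 12.9%. The pooled SD within lines ranged from 0.269 to 24.5 points over the other 20 tiles. In the Cln6 tile it was 6.73 points, and 3 of the 12 other tiles between 20 and 95% had a smaller one (median of the 12, 11.2 points). A tile 17 kb to the right was low in both lines. Its values were 4.68%, 16.4%, 6.78% and 18.7% in HCR rats 1, 11, 15 and 19, against 16.6%, 7.92%, 8.45%, 17.9%, 8.32% and 12.2% in LCR rats 12, 18, 22, 24, 26 and 30. The lines overlapped there, with HCR rats 1 and 15 below every LCR rat.

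The other 20 tiles were compared between HCR and LCR by limma over all 176004 tiles that could be tested, with adjustment over all of them. A call needed an adjusted p under 0.1 and at least 5 points. None of the 20 was called by limma, whereas 0.0858% of all tested tiles were, and the smallest limma adjusted p was 0.338. The Itga11 tile among them was listed as significant by the study's own test on read counts. That test listed many more regions over the genome than limma called here, at an FDR and a difference limit of the same size. At an unadjusted p under 0.05 there were 2 of 20, the Itga11 tile and the tile at 22 kb described next, beside 7.18% of all tested tiles. Nothing is read from these counts, since the window was placed by the same contrast and its tiles share the rats. The median difference was 1.33 points over the 20 tiles and 1.01 points over all tested tiles, and the median size of the difference 1.98 and 2.93 points. HCR was higher in 13 and lower in 7 of the 20, beside 64.7% higher among all tested tiles. With the mean of each rat set equal, 9 were higher and 11 lower, beside 42.8% higher among all.

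**Figure D3:**
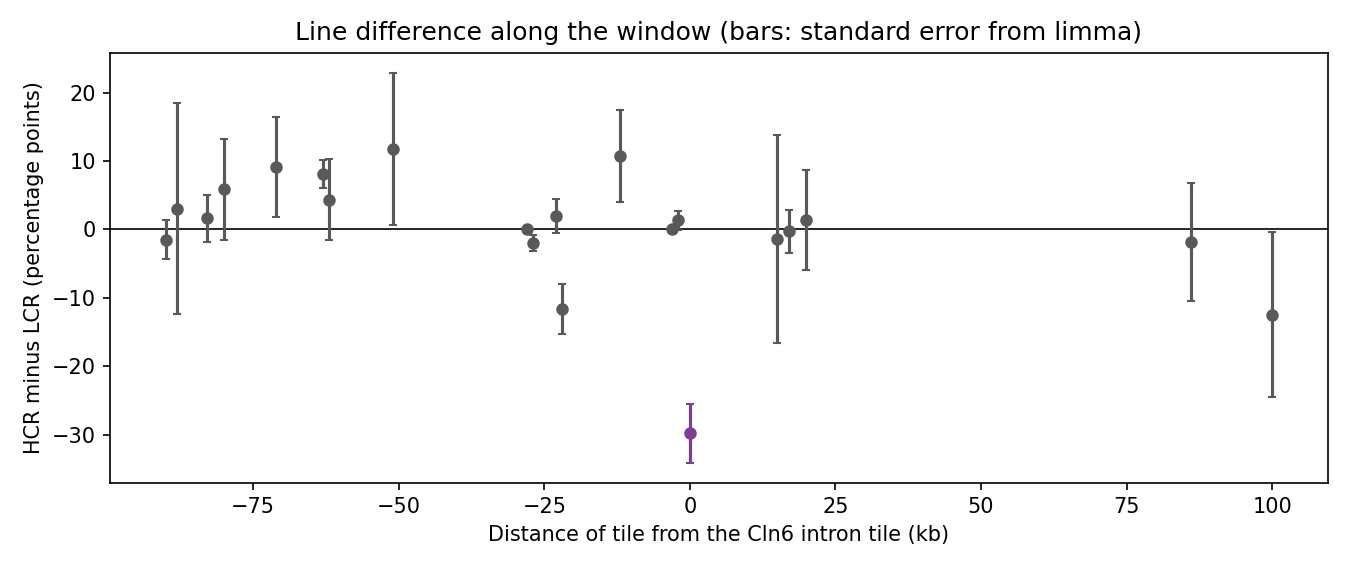
HCR minus LCR methylation (percentage points) of each tile by distance (kb) from the Cln6 intron tile, with the standard error from limma as bars and the intron tile in purple. The intron tile lies at -29.8 points, and the other 20 tiles lie between -12.4 and 11.8.

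The tile of the window that was annotated to Itga11, in an exon in the open sea, differed in the opposite direction. It runs from 63243001 to 63244000, 63 kb to the left of the Cln6 tile. Methylation was 94.6%, 93.5%, 95.6% and 90.2% in HCR rats 1, 11, 15 and 19, against 85.7%, 81.7%, 87.4%, 87.9%, 86.0% and 83.6% in LCR rats 12, 18, 22, 24, 26 and 30. All HCR rats lay above all LCR rats, by 2.32 points at the nearest. HCR rats averaged 93.5% ± 2.35 and LCR rats 85.4% ± 2.35 (SD, n = 4 and 6), so HCR was 8.10 points higher (standard error 1.98). This did not pass over all tiles here (limma adjusted p = 0.338). The study's own test, made on read counts, did list this tile among its significant regions. The adjoining tile, from 63244001 to 63245000, averaged 83.2% ± 12.5 for HCR and 78.9% ± 8.22 for LCR rats (limma adjusted p = 0.918). Its HCR values spread from 64.8 to 92.8% and its LCR values from 65.9 to 87.2%, so the lines overlapped.

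A tile 22 kb to the left of the Cln6 tile, from 63284001 to 63285000, was lower in all HCR rats, as the Cln6 tile was. It was at 18.1%, 18.2%, 17.9% and 12.7% in HCR rats 1, 11, 15 and 19, against 25.7%, 39.1%, 21.7%, 22.7%, 28.8% and 31.9% in LCR rats 12, 18, 22, 24, 26 and 30. The nearest rats of the lines were 3.56 points apart. The difference was -11.6 points (standard error 3.64) and did not pass over all tiles (limma adjusted p = 0.516). Its direct neighbour to the left, from 63283001 to 63284000, had similar HCR values of 13.8 to 19.8% and LCR values of 10.8 to 21.5%, with overlap and a difference of 1.96 points (limma adjusted p = 0.912). The LCR rats highest in the Cln6 tile, 24 and 12, were not the highest in the tile at 22 kb, where rats 18 and 30 were.

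These were the 2 of the 14 other complete tiles in which the lines had no overlap, beside 1.89% of all complete tiles. HCR lay above in 1 (1.53% of all complete tiles) and below in 1 (0.367%). With the mean of each rat set equal, the Itga11 tile overlapped, and after quantile normalization the tile at 22 kb did, leaving 1 of 14 each time. Neither tile reached an adjusted p under 0.1 in any alternative. Over the alternatives the limma adjusted p was 0.182 to 0.784 for the Itga11 tile and 0.425 to 0.792 for the tile at 22 kb.

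In 3 further tiles that differed by more than 10 points, the lines overlapped. The tile 51 kb to the left was at 82.5%, 40.7%, 78.8% and 50% in HCR rats 1, 11, 15 and 19, against 51.5%, 66.3%, 63.4%, 63.2%, 27.3% and 35.4% in LCR rats 12, 18, 22, 24, 26 and 30, a difference of 11.8 points (standard error 11.1; limma adjusted p = 0.876). HCR rats 1 and 15 were high and 11 and 19 low there, and LCR rats lay across much of the same range. At 12 kb to the left the difference was 10.7 points (standard error 6.76, adjusted p = 0.802 from limma), with HCR rat 11 at 46.7% and the other HCR rats between 18.9 and 24%. The tile at the right edge, 100 kb away, differed by -12.4 points (standard error 12.1; limma adjusted p = 0.881), with HCR rat 15 at 25.5%, HCR rats 11 and 19 at 70.2 and 68.6%, and LCR rats from 51.0 to 86.8%. Of the other 20 tiles, 5 were at least 5 points higher and 2 at least 5 points lower in HCR, and none of these passed the test.

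The remaining tiles are given to complete the profile. At 71 kb to the left, HCR rats lay at 72.7 to 94.8% and LCR rats at 60.9 to 94.1% (9.16 points, limma adjusted p = 0.849), and at 80 kb, HCR rats at 41.9 to 57.0% and LCR rats at 25.2 to 59.9% (5.85 points, adjusted p = 0.912). At 88 kb the lines averaged 70.1% (HCR) against 67.1% (LCR), and at 90 kb 11.9% (HCR) against 13.4% (LCR). The HCR rats alone spread over 32.5 points at 88 kb. To the right, HCR rats averaged 32.2% ± 14.9 and LCR rats 30.8% ± 9.12 at 20 kb, and HCR rats 11.1% ± 16.3 and LCR rats 12.9% ± 14.7 at 86 kb (SD, n = 4 and 6). In the tile at 86 kb HCR rat 1 and LCR rats 18 and 24 were listed at 0%, while HCR rat 19 was at 35.3% and LCR rat 22 at 38.5%. Between 20 and 86 kb to the right no tile had a value.

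At the borders of the window, the last tile inside at the left was the one at 90 kb, and the first outside, 102 kb to the left, averaged 70.2% in HCR against 49.9% in LCR rats. At the right the last tile inside averaged 54.7% in HCR against 67.2% in LCR rats. The first outside, 132 kb away, was at 1.002% in HCR and 0.950% in LCR rats.

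Values were missing for 5 HCR and 7 LCR entries of the window, spread over 6 of the 21 tiles. HCR rat 1 lacked 3 of them, HCR rat 15, LCR rat 26 and LCR rat 30 none. The Cln6 intron tile had a value in every rat, as had 71.8% of all tiles. Over the 14 other complete tiles, the mean of a rat was 33.3 to 37.8% in HCR and 31.6 to 36.2% in LCR rats, so the lines overlapped when the surroundings of the Cln6 tile were averaged.

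The place of the Cln6 tile in the whole table follows from its choice and is given as a description. Of all tested tiles, 0.101% (178) were at least as far below in HCR. There were 36154 tested tiles with an LCR mean within 5 points of that of the Cln6 tile, and their median HCR mean was 91.7%. Of these, 48 had an HCR mean as low as or lower than its 60.8%.

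**Figure D4:**
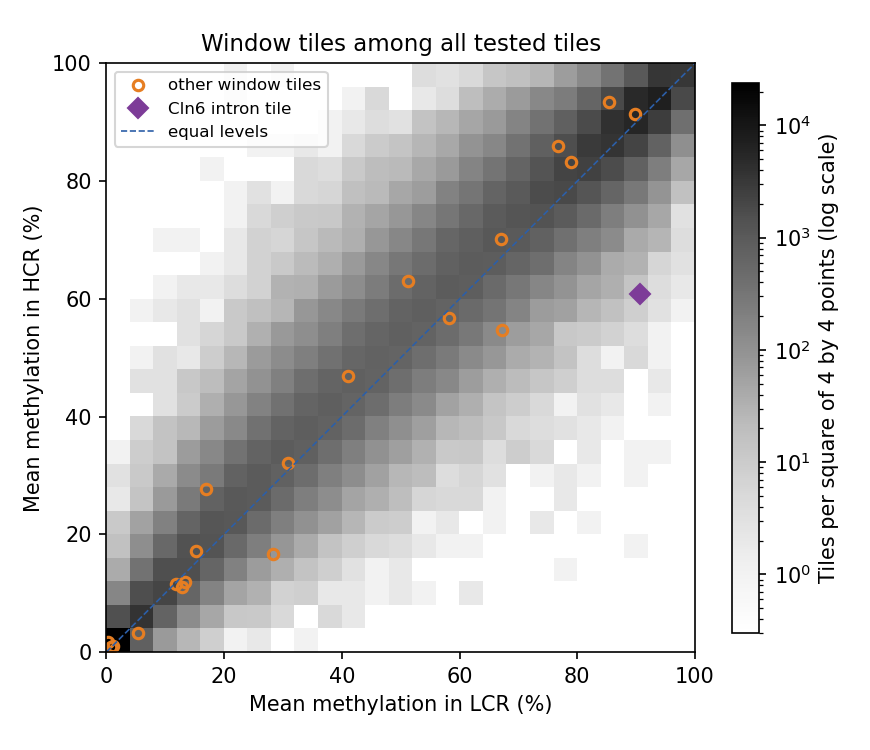
Mean methylation (%) in HCR against LCR rats for all 176004 tested tiles, in grey by number per square on a log scale, with the window tiles on top and a dashed line of equal levels. The Cln6 intron tile lies far below the line, at 60.8% in HCR against 90.6% in LCR rats; the other 20 tiles differ by -12.4 to 11.8 points.

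Other genes of neuronal ceroid lipofuscinosis and of the lysosome were sought in the annotation of tiles given by the study. That annotation covers only tiles that the study's own test listed as significant in these rats. Their values and directions are therefore not independent evidence, and gene positions for all other tiles were not used here. Of 12 further disease genes, 1 had a listed tile, and of 30 lysosome genes, 2. None of the 3 tiles passed limma over all tiles, beside 0.0858% of all tested tiles, and 2 of them had an unadjusted p under 0.05, beside 7.18%. Those shares are of unselected tiles, unlike these 3, so nothing is read from the comparison. Grn, which encodes the lysosomal protein progranulin, had an exonic shelf tile on chromosome 10 from 87390001 to 87391000, at 84.8%, 85.3% and 86.7% in HCR rats 11, 15 and 19, against 67.2%, 78.7%, 76% and 58.2% in LCR rats 12, 18, 24 and 26 (15.6 points, standard error 5.47; limma adjusted p = 0.613). All measured HCR rats lay above the LCR rats, opposite to the Cln6 tile. Gaa, the acid alpha-glucosidase that breaks down glycogen in the lysosome, had an exonic tile on chromosome 10 from 104536001 to 104537000. It was at 80.4%, 78.9%, 51.2% and 84.7% in HCR rats 1, 11, 15 and 19, against 44.4%, 40%, 21.6% and 33.3% in LCR rats 12, 18, 26 and 30 (38.96 points, standard error 9.46; limma adjusted p = 0.378). Igf2r, the receptor that carries enzymes with mannose 6-phosphate to the lysosome, was at 100% in 3 HCR rats and at 73.8 to 100% in 5 LCR rats in its exonic tile (9.29 points, limma adjusted p = 0.789), with overlap.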

How the data were processed

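RRBS libraries were made from hippocampal DNA of 4 HCR and 6 LCR rats. After trimming (Trim Galore 0.6.10) and alignment to mRatBN7.2 (rn7) by Bismark with Bowtie2, the authors removed CpGs of low or extreme coverage and summarised the rest in tiles of 1000 bp with methylKit. Their deposited table gives a percent of methylated calls per tile and rat, without read counts, so the authors' chi-square test on counts, and any coverage minimum, could not be applied. The authors rejected some HCR libraries at quality control, which rested in part on a principal component analysis. These libraries are not analysed here. Libraries were pooled for bisulfite conversion; the members of a pool are not given in the sources used here, so no values within pools were computed.

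Groups came from the sample labels. Tiles with at least 3 values per line were fitted by limma 3.58.1 in R 4.3.3 on percent values, with a trend of variance on level and without covariates, after 28 tiles with the same value in every rat were dropped. Benjamini-Hochberg adjustment covered all 176004 tiles. The fit was run on simulated complete tiles drawn with its own spreads, in which only tiles of middle level were changed. That run does not cover tiles with missing values or changes in tiles of very low or very high level. Python 3.11.15, pandas 2.3.3 and Matplotlib 3.10.9 were used for summaries. Named tiles were the Cln6 tile, tiles within 5 kb, annotated tiles, and those with the largest differences; the remaining tiles were added for a complete profile. The window, lists and rules were chosen with earlier results of these data known. Genes and features of tiles came from the supplementary tables of the study. Promoters came from RefSeq (GRCr8). Alternatives were the logit scale, complete tiles, no trend, equal rat means, quantile normalization, an SD filter of 2 points, medians, 50 kb on either side, and leaving out each rat.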

Additional observations from a re-analysis of the deposited data

Results flagged for a closer look

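Within the window, 36 sets of 4 to 6 rats of 1 line in 1 tile were searched for a rat far from the rest of its line, and 4 such values were found; about 1 in 20 sets gives one by chance. In the tile 83 kb to the left of the Cln6 tile, HCR rat 11 was at 90.4%, below the other HCR rats at 91.7 to 91.9%, and LCR rat 18 was at 76.2%, below the other LCR rats at 88.5 to 95.3%. In the tile at 22 kb to the left, HCR rat 19 was at 12.7%, below the other HCR rats at 17.9 to 18.2%. HCR rat 19 was also apart in the tile 86 kb to the right, at 35.3%, where the other HCR rats were at 0 to 5.56%. None of them lay in the Cln6 intron tile.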

How the results depend on the processing

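No paired analysis was made because HCR and LCR rats are separate animals and no matching between them is described. The difference of the Cln6 tile was -30.03 points as a difference of medians, -31.7 with equal rat means and -33.4 after quantile normalization. As a description, this tile met the limits of a call in the main fit and in 6 of 16 alternative fits, but not on the logit scale. None of the other 20 tiles was called in any alternative. Their median difference, 1.33 points, was -0.424 with equal rat means and -0.241 after quantile normalization (14 tiles), while that of all tested tiles, 1.01, was -0.903 and -0.0386. It was 0.0419 within 50 kb and 0.184 to 1.74 with 1 rat left out. The tiles without overlap numbered 1 with equal rat means and 1 after quantile normalization, against 2. Calls over all tiles numbered 151, but 85 on the logit scale, 262 without the trend and 22 to 100 with 1 rat left out, with the fewest without HCR rat 1. The cause was not tested. The study's own test on read counts listed many more regions than any of these fits. The tiles of the disease and lysosome lists, all listed as significant by the study, gave 0 limma calls in every alternative. Of 288 values of single tiles under alternatives, 2 moved by more than the SD within lines, those of the low tiles at 3 and 28 kb to the left with equal rat means. That step takes the same number of points from every tile of a rat, also from tiles near 0. The unknown read depth limits all single values.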

Other observations

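Among tiles of chromosome 8 outside the window that limma called, the one nearest to Cln6 started at 64770001, 1.46 Mb away, and was at 52.3% in HCR and 89.3% in LCR rats (-37.0 points). The next, 4.71 Mb away, was at 47.4% in HCR and 85.6% in LCR rats. Both were selected by the same contrast in the same rats, so these levels are a description.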
